A study of Mus musculus with 4 samples.

Results

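Dis3, Dis3l and Dis3l2, the 3 genes of the Dis3 family of RNA-degrading enzymes, were followed among the 24411 genes measured in mouse hematopoietic stem cells that had lost or kept Dis3. The members were taken by gene symbol, all 3 were present, and all 3 were among the 12244 genes that passed the filter on low counts. The study compared 2 libraries of Dis3-/- cells (donors Dis3fl/fl;Mx-Cre) with 2 wild-type libraries (donors Dis3fl/fl with no Cre), all on a C57BL/6 background. Donor marrow was grafted into lethally irradiated CD45.1 recipients, and after 4 weeks pIpC, a double-stranded RNA that raises interferon and so turns on the Mx promoter, was injected at 300 µg on days 0 and 2; this treatment text covers both genotypes. On day 4, 100 lineage-negative EPCR-positive CD150-positive CD48-negative cells were sorted for each library. The age and sex of the mice are not given in the labels, and the stated sort names no CD45 marker, so nothing in the labels says that surviving host stem cells, whose Dis3 is not described as floxed, were left out; their share was not tested. The 2 libraries of a genotype came from separate mice according to the design text.

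The enzymes of this family digest RNA from its 3′ end with a domain shared with bacterial RNase II. DIS3 is the main catalytic subunit of the nuclear RNA exosome, a ring of inactive subunits through which RNA is threaded, and it also has an endonuclease domain. DIS3L takes its place on cytoplasmic exosomes, while DIS3L2 works in the cytoplasm without the exosome and prefers RNA whose end carries added uridines.

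Library totals ranged from 6085367 to 6818535 expected counts (read counts divided among genes by estimate), and no 2 of the 4 libraries were identical. Of the 12244 tested genes, 23% passed the test between genotypes (edgeR quasi-likelihood, adjusted p below 0.05), 12.7% higher and 10.2% lower in Dis3-/- cells. Of 10 stem cell marker genes 4 fell and 1 rose. Of 22 measured markers of other blood cells, 5 were at 0 in every library, among them the T cell genes Cd3e and Cd3g and the B cell gene Ms4a1. The summed expected counts of those 22 markers came to 909 and 1107 for wild type, against 926 and 701 for Dis3-/-, with the largest part from Nkg7 and Itga2b. Their part in the results below was not tested.

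Dis3 was the targeted gene and fell in Dis3-/- cells, but its reads did not disappear. In TPM, a level scaled by gene length and library total, Dis3 stood at 36.87 and 34.55 in the wild-type libraries and at 14.12 and 18.52 in the Dis3-/- libraries. Both Dis3-/- libraries lay below both wild-type libraries, and each still held over 100 reads of the gene. The pairwise Dis3-/- to wild-type ratios of TPM ranged from 38.3% to 53.6%. On CPM, counts scaled to library size by the TMM method and not to gene length, the log2 fold change was -1.02 ± 0.14 (SE, 2 libraries a group; edgeR adjusted p = 2.58e-04). This leaves 49.4% of the wild-type level, with a 95% interval from the fit of 39.8% to 61.2%. A lower fold change was found for 323 of the 12244 tested genes, or 2.64%. In such bulk samples, fewer cells that express a gene and less RNA per cell cannot be told apart.

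Dis3l, the cytoplasmic exosome's nuclease gene, did not pass the test in either direction. Its TPM was 28.67 and 28.51 without Cre, and 23.95 and 27.70 in the Dis3-/- libraries. On this scale both Dis3-/- values lay below both wild-type values. On the CPM scale the values were 40.5 and 41.1 against 37.5 and 42.1, and the groups overlapped. The log2 fold change was -0.03 ± 0.13 (edgeR adjusted p = 0.880), and its 95% interval reached from 80.4% to 118.5% of the wild-type level.

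Dis3l2, the nuclease of uridylated RNA, did not pass either. It stood at 44.27 and 47.63 TPM in wild type and at 43.46 and 47.41 TPM in Dis3-/- cells, so that the groups overlapped. The log2 fold change was 0.10 ± 0.11 (edgeR adjusted p = 0.577), with a 95% interval from 90.6% to 126.2% of the wild-type level. The upper ends of the intervals are 1.19-fold for Dis3l and 1.26-fold for Dis3l2. With 2 libraries a group, changes within these intervals remain possible. The TPM scale lowered the median log2 fold change of all tested genes by about 0.1 (-0.11 on log2(TPM + 1) against -0.00 on counts), and moved the share of called genes that were higher from 55.5% to 42.1%. Relative to that median, the values on log2(TPM + 1) were -0.99 for Dis3, -0.04 for Dis3l and 0.09 for Dis3l2.

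**Figure D1:**
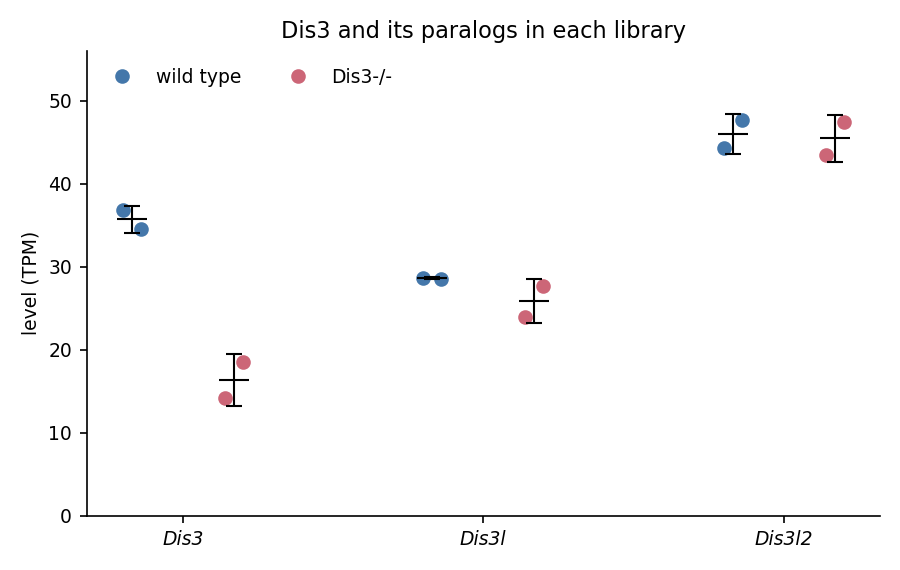
Level of each gene in TPM (vertical axis) in the wild-type (blue) and Dis3-/- (red) libraries; each point is a library, and the black bars give the mean and SD of 2 libraries. The Dis3 points fall from 36.87 and 34.55 to 14.12 and 18.52, while those of Dis3l2 overlap between genotypes.

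**Figure D2:**
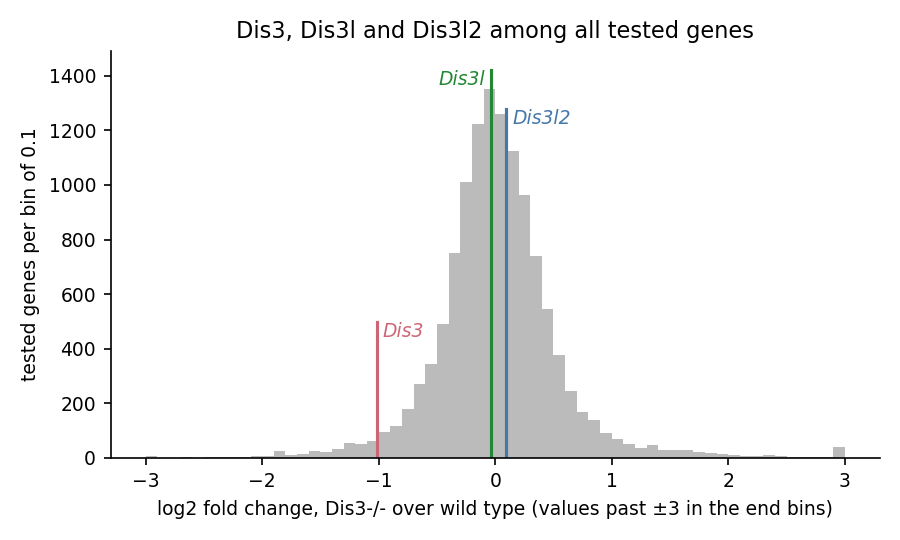
Number of tested genes (vertical axis) by log2 fold change of Dis3-/- over wild type (horizontal axis), with coloured lines at the 3 family members. Dis3l at -0.03 and Dis3l2 at 0.10 sit in the bulk of the distribution, and Dis3 at -1.02 in its lower tail.

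The order of the family differed between genotypes. In wild-type cells, Dis3l2 had the highest mean level (45.95 ± 2.38 TPM, SD, n = 2), Dis3 came next (35.71 ± 1.64) and Dis3l was lowest (28.59 ± 0.113). In Dis3-/- cells Dis3l2 was again highest (45.4 ± 2.79), followed by Dis3l (25.8 ± 2.65) and then Dis3 (16.32 ± 3.11). Each step in either order was larger than the SDs of the neighbouring values. Among the tested genes, the wild-type mean placed Dis3l2 at the 65.3 percentile, Dis3 at the 56.4 and Dis3l at the 48.8, so that the 3 are genes of middling level in these cells.

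Dis3 made up 33.6% and 31.2% of the family's summed TPM in wild-type libraries and 17.3% and 19.8% in Dis3-/- libraries. The difference of the means was -13.8 percentage points. An exact 2-sided permutation test over libraries gave p = 0.333, the smallest value that 2 libraries against 2 allow. The share of Dis3l2 was 40.3% and 43.0% against 53.3% and 50.6%, and that of Dis3l 26.1% and 25.8% against 29.4% and 29.6%. These shares are of a smaller total, 81.53 and 93.63 TPM against 109.81 and 110.69 TPM in wild type. Dis3l and Dis3l2 together stood at 72.94 and 76.14 TPM in wild type and at 67.41 and 75.11 TPM in Dis3-/- cells. The paralog sum differed by -3.28 TPM between genotypes (exact permutation p = 0.667), beside a difference of -19.39 TPM for Dis3. For 1 transcript of Dis3l the wild-type libraries held 1.29 and 1.21 of Dis3, and the Dis3-/- libraries 0.590 and 0.669.

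The read counts of Dis3 were estimated jointly with those of an overlapping gene. Dis3 lies on chromosome 14 (99076634 to 99099780, mm10, minus strand), and its start overlaps that of the oppositely directed gene Pibf1, which encodes a centrosome-associated protein, by 357 bases in the RefSeq annotation. The expected counts of Dis3 were fractional in 4 of 4 libraries, 387.67 and 335.35 for wild type and 140.43 and 192.9 for Dis3-/- cells. Pibf1 had 168.33 and 141.65 against 135.57 and 98.1. Within 0.01, the 2 genes summed to the whole numbers 556 and 477 for wild type and 276 and 291 for Dis3-/-. Of the 1336 genes with fractional counts in all libraries, Pibf1 was the 1 gene whose values completed those of Dis3 to whole numbers in each of the 4. Such values arise where reads that fit both genes are divided between them by estimate; how many reads these were cannot be read from the table. The counts of Dis3l and Dis3l2 were whole in every library.

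The 2 genes start head to head. In GENCODE M21 their main coding transcripts do not share exon bases and start 136 bases apart, while a retained-intron transcript of Pibf1 shares 325 bases with the first exon of Dis3. The stretch that separates the starts of the main coding transcripts is shown because it is where the annotations of the gene pair meet. It is chr14:99099767-99099906 of GRCm38.p6 (RefSeq), read on the minus strand in the direction of Dis3; its last 14 bases, the palindrome among them, lie within Dis3 by the RefSeq start and its last 4 by the GENCODE start. All of it lies in the first exon of that non-coding Pibf1 transcript. The capitals mark TCTCGCGAGA, the longest perfect palindrome in the RefSeq start window of Dis3.

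Dis3 to Pibf1: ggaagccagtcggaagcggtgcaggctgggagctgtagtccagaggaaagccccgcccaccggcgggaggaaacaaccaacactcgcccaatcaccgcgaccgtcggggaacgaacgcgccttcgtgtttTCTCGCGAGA

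The stretch has a GC content of 64.3% and 16 CpG sites in 140 bases. The palindrome, which reads the same on both strands and was chosen after the sequence was seen, occurs in 0.466% of the 32851 RefSeq start windows of 300 bases. The 2 windows of Dis3l, the 1 of Dis3l2 and the 1 of Pibf1 lack these letters. For Pibf1 this depends on where the window lies. The palindrome, at 99099767 to 99099776, is inside the RefSeq span of Pibf1, which begins at 99099424. It also lies upstream of the GENCODE start of the main coding transcript of Pibf1 at 99099907, so it is not particular to the Dis3 side.

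How the division of shared reads bears on the size of the fall was not tested, because their number is not known. The joint count used here holds all reads given to either gene, not only the shared ones. Dis3 took 69.7% and 70.3% of the joint count in wild-type libraries, and 50.9% and 66.3% in Dis3-/- libraries. The Dis3-/- libraries thus differed in the split while their joint levels, 46.5 and 45.5 CPM, lay close together, below the wild-type 80.1 and 75.7 CPM. With both genes summed as 1 feature, an alternative added after seeing the data, the log2 fold change was -0.76 ± 0.11 (edgeR adjusted p = 2.83e-04). The sum includes the reads of Pibf1 itself, so its smaller fall does not measure how many Dis3 reads were misassigned. Pibf1 by itself stood at 23.4 ± 1.17 CPM against 19.1 ± 5.35 CPM and did not pass (-0.30 ± 0.20, edgeR adjusted p = 0.320). Its value ranged from -0.03 without Dis3-/- replicate 2 to -0.61 without Dis3-/- replicate 1.

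**Figure D3:**
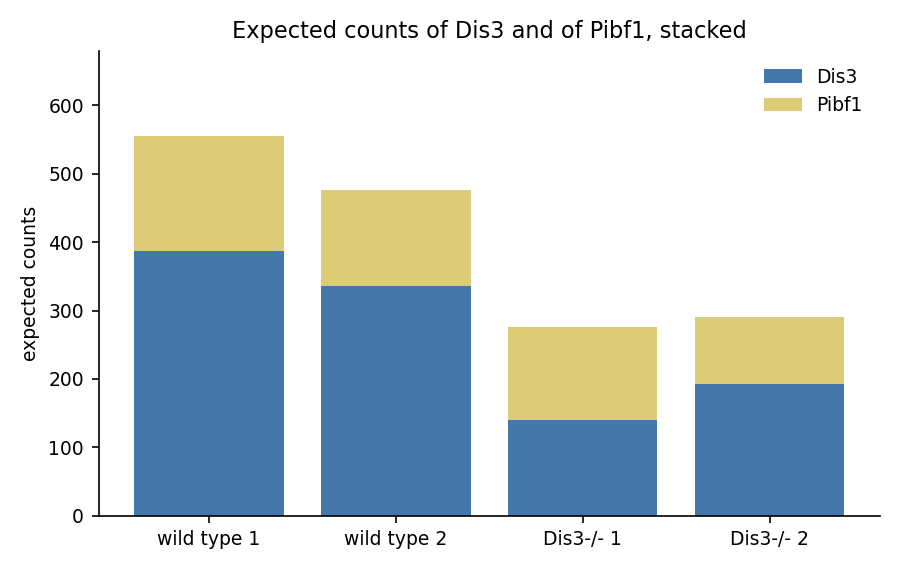
Expected counts (vertical axis) of Dis3 (blue) and Pibf1 (yellow) stacked in each library. The stacks reach 556 and 477 for wild type and 276 and 291 for Dis3-/-, and the Dis3-/- libraries differ more in the split than in the height.

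The part of Dis3 flanked by loxP sites is not stated in the labels, and reads from exons outside it would be counted with any from intact alleles. The ratio of expected count to TPM gives the length that the quantification used for a gene, which shifts where the estimate moves to a longer or shorter isoform. For Dis3 this length was 1.35 times that of the median gene in each library, over genes with at least 5 TPM, and its ratio between Dis3-/- and wild-type cells was 1.001. Its spread over the 4 libraries was 0.145% of its mean, beside a median of 0.201% over 10164 genes. The spread was 0.514% for Dis3l and 0.295% for Dis3l2. No move between isoforms of different length was seen for any of the 3, though a single isoform per gene in the authors' annotation would give the same.

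Mx1, the gene whose promoter drives the Cre transgene, overlapped between genotypes and did not pass. It had 129 and 56.52 expected counts in the wild-type pair, against 72 and 239.43 (0.84 ± 0.40, edgeR adjusted p = 0.150). The call turned on single libraries. With wild-type replicate 1 left out Mx1 was called higher at 1.46 (edgeR adjusted p = 0.0118). Leaving out Dis3-/- replicate 1 gave 1.43 (edgeR adjusted p = 1.36e-07), also a call, whereas leaving out Dis3-/- replicate 2 gave -0.20 (edgeR adjusted p = 0.757). It also passed with no filter on low counts (0.84, edgeR adjusted p = 3.06e-04), but in no other alternative with all libraries. The adjusted p was 0.638 with DESeq2, 0.245 with limma-voom and 0.608 with edgeR, robust empirical Bayes. In both genotypes, the wild type without Cre included, the library with more Mx1 was also the one with more Dis3. With 2 libraries a group this was not tested. Of 10 interferon response genes, 1 rose and none fell, beside 12.7% of all tested genes higher; this was Usp18, an interferon-induced protease gene (14.3 and 13.8 against 23.7 and 26.4 CPM; 0.84 ± 0.18, edgeR adjusted p = 4.44e-03). The count of higher genes was 3 without wild-type replicate 1 and 2 without Dis3-/- replicate 1. The median of the list was 0.19, with 6 of 10 values above 0; it was 0.62 with 9 above 0 without wild-type replicate 1, and -0.23 with 2 above 0 without wild-type replicate 2.

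Of the 6 nearest tested neighbours of Dis3 that do not overlap it, 2 passed the test, beside 23% of all tested genes. Both were lower, as were 10.2% of all tested genes, and both lie over 700 kb away. The transcription factor gene Klf12 stood at 36.6 and 42.6 CPM in wild type and at 21.2 and 21.7 CPM in Dis3-/- cells (-0.88 ± 0.15, edgeR adjusted p = 1.07e-03). Dach1, another transcription factor gene, had -0.33 ± 0.10 (edgeR adjusted p = 0.0265), but -0.18 (edgeR adjusted p = 0.312) without wild-type replicate 1. Bora, a gene of mitotic entry 2.09 kb from the 3′ end of Dis3, had a value above 0 that did not pass (0.31 ± 0.13, edgeR adjusted p = 0.108). Without Dis3-/- replicate 1 Bora passed (0.43, edgeR adjusted p = 0.0496), and without Dis3-/- replicate 2 it was at 0.19. Mzt1, a gene of microtubule nucleation, had -0.15 ± 0.11 (edgeR adjusted p = 0.339).

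Dis3l (chromosome 9, 64306756 to 64341403, minus strand) lies 1.33 kb from Tipin, a replication fork protection gene. Tipin rose from 21.9 and 22.5 CPM to 44.8 and 38.2 CPM (0.90 ± 0.15, edgeR adjusted p = 8.53e-04), beside the value of -0.03 for Dis3l. Uchl4, which lies inside the span of Map2k1 and has fractional counts, fell (-1.09 ± 0.32, edgeR adjusted p = 0.0252), a call that held without wild-type replicate 1 but not without any other single library. The other 4 neighbours of Dis3l, among them the kinase gene Map2k1 (-0.03 ± 0.11) and the receptor gene Megf11 (-0.24 ± 0.16), did not pass. The calls on Tipin and Uchl4 stand beside 23% of all tested genes called.

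Dis3l2 spans 348 kb of chromosome 1 (86701924 to 87050097, plus strand). Gm6136 and Gm41909, which overlap it in RefSeq, were not among the genes measured. Of its 6 nearest tested neighbours only Ptma passed, beside 23% of all tested genes. Kcnj13 did not pass (-0.46 ± 0.27, edgeR adjusted p = 0.249) and ranged from -0.95 to -0.09 without single replicates. Ptma, which encodes the chromatin-linked protein prothymosin alpha, rose (0.50 ± 0.06, edgeR adjusted p = 1.31e-04). The nearest tested one, the signalosome gene Cops7b, had 0.42 ± 0.17 (edgeR adjusted p = 0.101). The translation repressor gene Eif4e2 on the other side had -0.08 ± 0.11 (edgeR adjusted p = 0.644).

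**Figure D4:**
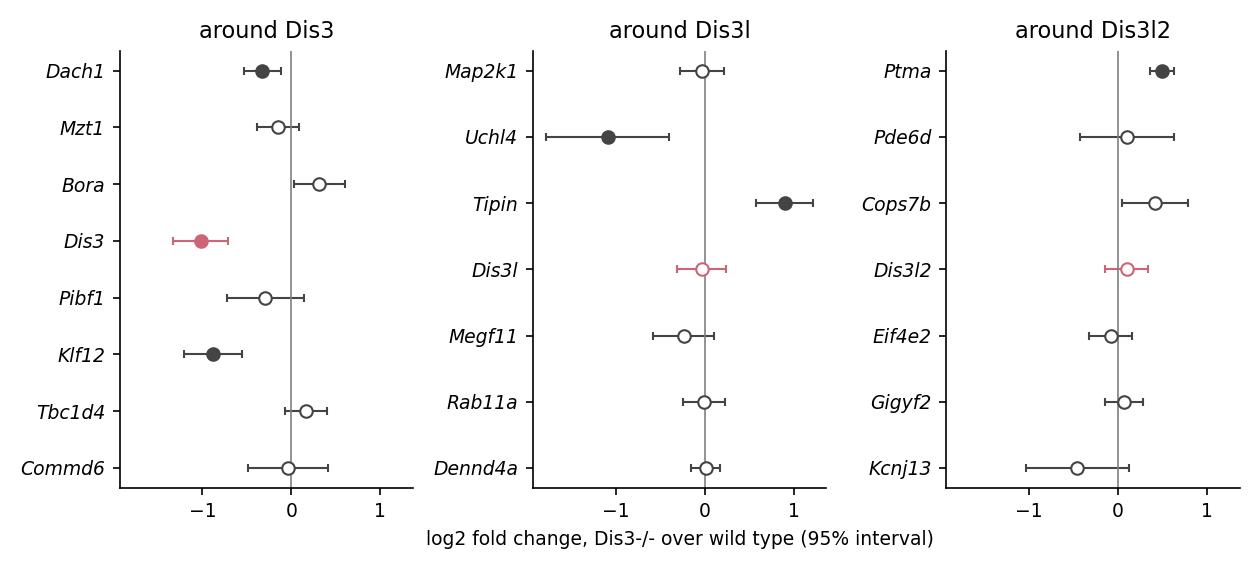
Log2 fold change of Dis3-/- over wild type (horizontal axis) with its 95% interval for each member (red) and its nearest tested genes (black) in chromosome order from top to bottom; filled points passed the test. Dis3 at -1.02 lies between Bora at 0.31 and Pibf1 at -0.30.

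The genes whose profiles over the 4 libraries lay nearest to a member were found among 9119 others with a mean of at least 10 CPM, by Euclidean distance of mean-centred log2(CPM + 1). Nearest to Dis3 were Pcyt1b (distance 0.0423), a gene of phosphatidylcholine synthesis, the pseudogene Ppp4r1l-ps (0.0835) and the vitamin B12 carrier gene Tcn2 (0.0848). Pcyt1b had 18.3 and 17.5 CPM in wild type and 7.07 and 9.38 CPM in Dis3-/- cells. Nearest to Dis3l were Ece1 (0.0124), Dedd (0.0129) and Slc35e1 (0.0155). Nearest to Dis3l2 were Wdr82 (0.0135), Sprtn (0.0195) and Cenpj (0.0222). With 4 libraries such likeness is a description only.

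The genes of the ring that DIS3 docks on did not fall with Dis3. Of the 9 ring and cap genes Exosc1 to Exosc9, 3 rose and none fell, beside 12.7% of all tested genes higher. Their median log2 fold change was 0.35, beside -0.00 over all tested genes. Exosc7, a ring gene, stood at 111.07 and 97.87 TPM in wild type and at 135.49 and 153.47 TPM in Dis3-/- cells (0.57 ± 0.12, edgeR adjusted p = 4.40e-03). The ring gene Exosc5 (0.65 ± 0.19, edgeR adjusted p = 0.0247) and the cap gene Exosc2 (0.33 ± 0.11, edgeR adjusted p = 0.0395) rose as well. Exosc6 had the highest value of the ring but few reads (31 and 25 against 46 and 54 counts; 0.94 ± 0.33, edgeR adjusted p = 0.0566). Exosc4 was nearest 0 (0.02 ± 0.18) and turned below 0 on TPM values. Without wild-type replicate 2, or without Dis3-/- replicate 1, 1 ring gene was called instead of 3; DESeq2 called 1 too.

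Dis3 amounted to 88.1% and 91.7% of the median TPM of the 9 ring and cap genes in wild-type libraries, and to 27.0% and 36.2% in Dis3-/- libraries. The nuclear exosome's other nuclease gene, Exosc10, stood at 93.16 and 92.92 TPM against 101.94 and 97.16 TPM and did not pass (0.21 ± 0.09, edgeR adjusted p = 0.107). Dis3 was at 39.6% and 37.2% of the Exosc10 level in wild-type and at 13.9% and 19.1% in Dis3-/- libraries.

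Among 11 nuclear exosome cofactor genes, Exosc10 counted with them, 2 rose and none fell, beside 12.7% higher and 10.2% lower over all tested genes. They were Skiv2l2 (0.36 ± 0.12, edgeR adjusted p = 0.0414), the helicase gene that feeds RNA to the nuclear exosome, and Pabpn1 (0.38 ± 0.10, edgeR adjusted p = 0.0143), the nuclear poly(A)-binding protein gene. The median of the list was 0.11, and -0.01 on log2(TPM + 1). The adaptor gene Rbm7 had -0.18 ± 0.10 (edgeR adjusted p = 0.216). Without wild-type replicate 2, without Dis3-/- replicate 1 and on TPM values, neither Skiv2l2 nor Pabpn1 passed.

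Of 4 genes of the cytoplasmic exosome's helper complex, which serves Dis3l, 1 rose, beside 12.7% of all tested genes. This was the Ski complex subunit gene Wdr61, with 343 and 191 counts for wild type and 379 and 384 for Dis3-/- (0.63 ± 0.17, edgeR adjusted p = 0.0188). Wild-type replicate 2 stood apart, and without it the value was 0.32 (edgeR adjusted p = 0.149). The helicase gene Skiv2l (0.12 ± 0.11), the scaffold gene Ttc37 (-0.04 ± 0.09) and Hbs1l (-0.09 ± 0.10) did not pass.

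In the Dis3l2 pathway, Zcchc6 (TUT7), a uridylyltransferase gene whose enzyme marks RNA for DIS3L2, fell. It stood at 114.76 and 117.32 TPM in wild type and at 82.92 and 74.73 TPM in Dis3-/- cells (-0.44 ± 0.08, edgeR adjusted p = 2.03e-03), with no overlap, in a comparison where 10.2% of tested genes were lower. Its partner Zcchc11 (TUT4) had 73.18 and 73.50 against 61.26 and 63.34 TPM and did not pass (-0.12 ± 0.08, edgeR adjusted p = 0.290). Lin28a, whose protein recruits these enzymes to let-7 precursors, had no counts. Its paralog Lin28b had 13 and 6 counts against 3 and 4 and was too low to test. Of the structured RNAs known as DIS3L2 substrates, Rmrp (0.12 ± 0.13, edgeR adjusted p = 0.573) and Rpph1 (-0.10 ± 0.13, edgeR adjusted p = 0.612) were measured well enough to test and did not pass.

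**Figure D5:**
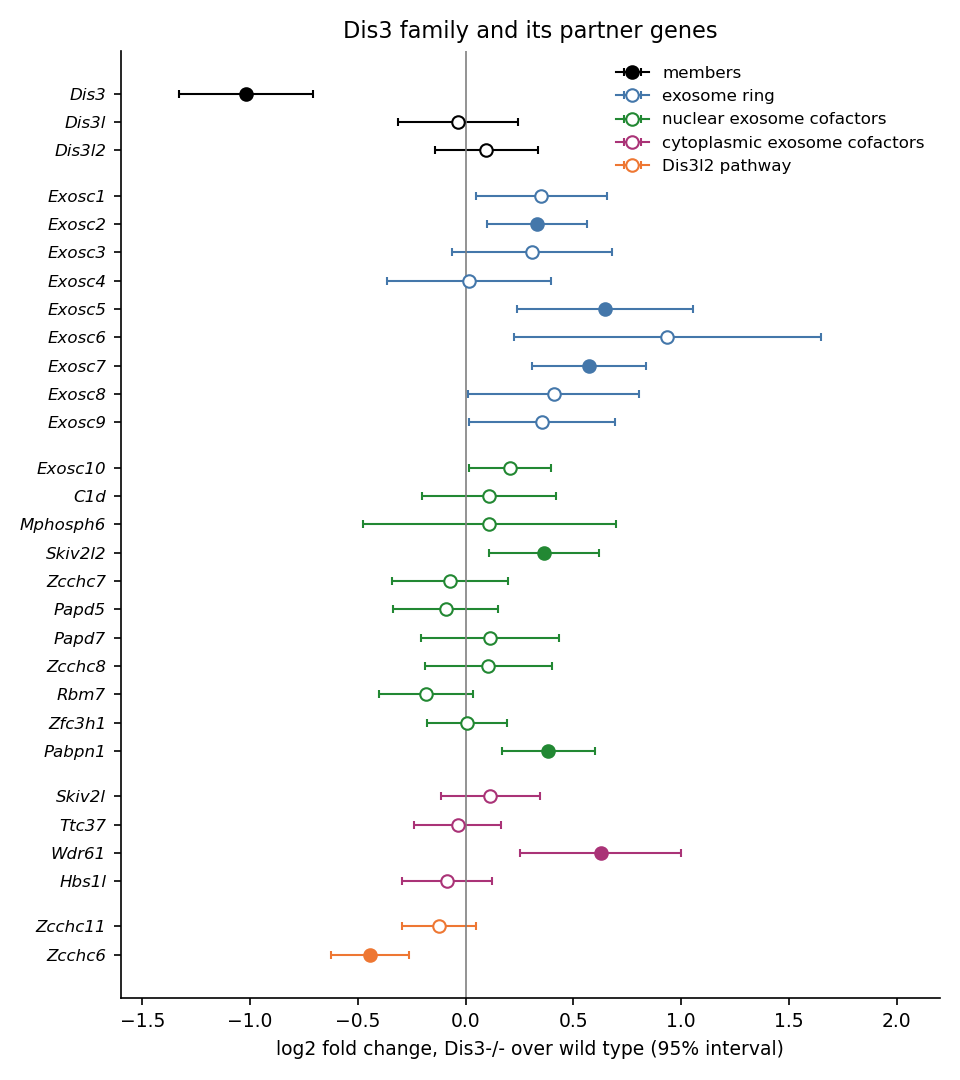
Log2 fold change of Dis3-/- over wild type (horizontal axis) with its 95% interval for the family members and 4 groups of partner genes, by colour; filled points passed the test. Dis3 at -1.02 stands apart on the left, the exosome ring genes lie at or above 0, and Zcchc6 lies at -0.44.

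Among 21 tested genes of other 3′ to 5′ exonucleases and deadenylases, 4 rose and 1 fell, with a median of 0.13. Over all tested genes 12.7% were higher and 10.2% lower, so that the 5 called genes are near the share of 23% called overall. The higher ones were the polynucleotide phosphorylase gene Pnpt1 (0.47 ± 0.12, edgeR adjusted p = 0.0122), the mitochondrial nuclease genes Rexo2 (0.44 ± 0.12) and Pde12 (0.38 ± 0.11), and Eri1 (0.27 ± 0.09), which trims histone mRNA and rRNA. PNPT1 acts mainly in mitochondria too. The deadenylase gene Cnot6l fell (-0.35 ± 0.08, edgeR adjusted p = 5.60e-03). The balance turned with the setting. DESeq2 called 0 higher and 1 lower, and limma on both filtered TPM scales called 0 higher and 3 lower. Without wild-type replicate 2 there was 1 higher and 1 lower, and without Dis3-/- replicate 1 there were 2 higher and 2 lower. The 5′ to 3′ exonuclease genes Xrn1 (-0.12 ± 0.12), Xrn2 (0.08 ± 0.09) and Dxo (-0.31 ± 0.24) were not called by edgeR, DESeq2 or limma-voom, and 0 of the 3 had an unadjusted p under 0.05.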

How the data were processed

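RNA of 100 sorted cells a library was read with RamDA-seq, which primes total RNA along its length, per the labels' protocols. Per the submitters' processing notes, RSEM 1.3.3, STAR 2.7.8a and Trim Galore 0.6.6 were used with mm10; for the annotation and strand setting no source used here has an entry. The authors deposited expected counts (estimated counts, not normalized) and TPM, whose columns each sum to 1000000. Expected counts were rounded to whole numbers; edgeR 4.0.16 (R 4.3.3) gave the main test (filterByExpr with minimum count 10 and minimum total 15, TMM, 2-sided quasi-likelihood test, Benjamini-Hochberg over all 12244 tested genes, threshold 0.05). Each SE was obtained by dividing the size of the fold change (log2) by √F. Alternatives used DESeq2 1.42.0 and limma 3.58.1, with pseudocounts of 1 and 0.1 on TPM. The procedure was tested on simulated counts. Depth was 6085367 to 6818535 counts, and 3 counts amount to 0.432 to 0.505 CPM; such floors cover counting error only. Symbols were matched to RefSeq GRCm38.p6. Columns of other samples numbered 0.

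The members and gene lists were chosen with earlier results of these data known. Named genes were the members, genes that overlap them, the 3 nearest tested genes on each side, up to 4 members of each list with the smallest p, called genes of the exosome lists, and the 3 genes nearest in profile (Gm and Rik models left out); the remaining ring genes, and markers named at 0 or for their share of a sum, were chosen after their values were seen.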

Additional observations from a re-analysis of the deposited data

How the results depend on the processing

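Dis3 kept its direction under 14 alternatives (log2 fold change -1.21 to -0.85), and both ends of this range came from fits without single replicates. In the alternatives with all libraries it also kept its call. There the adjusted p ran from 1.83e-10 (edgeR, no filter) to 0.0397 (limma on log2(TPM + 1), no filter). Another alternative, at -0.76, measured Dis3 and Pibf1 summed and not Dis3 alone. Dis3l and Dis3l2 stayed without a call in 14 alternatives each (adjusted p 0.471 to 0.944 and 0.514 to 0.933), but not always on the same side of 0. Dis3l ranged from -0.12 to 0.048 without single replicates, and Dis3l2 from 0.03 to 0.16. On TPM values Dis3l2 was at -0.0163 (limma, pseudocount 1, with or without a filter) or -0.0166 (pseudocount 0.1). The summed paralogs differed by 3.001 on the CPM scale, which is not per length, in place of -3.28 TPM, and by -7.13 to 0.57 TPM without single replicates. The Dis3 share differed by -15.1 to -12.6 percentage points without single replicates. The ratio of Dis3 lengths, Dis3-/- over wild type, was 1.0008 to 1.0014 without single replicates.

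The count of called genes was 2811, but 1742 with DESeq2 and 950 by limma on log2(TPM + 1) with no filter. Called ring genes numbered 1 with DESeq2, 0 by limma on TPM with no filter and 1 to 3 without single replicates. Raised nuclear cofactors numbered 1 with DESeq2, 0 by limma on any TPM scale and 0 to 2 without single replicates, and 1 gene (Rbm7) was lower on both filtered TPM scales. Raised cytoplasmic cofactors numbered 0 on any TPM scale and 0 to 1 without single replicates. The cause was not tested.

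With the replicate number as a block (replicate block), 2614 genes were called and Dis3 was at -1.03; no call on the members or on the exosome lists changed, while other 3′ to 5′ exonuclease genes numbered 3 higher in place of 4 and 2 lower in place of 1. Klf12, Ptma and Usp18 were not called by limma on log2(TPM + 1) with no filter (adjusted p 0.0599, 0.0552 and 0.0505). The labels do not say that equal numbers share an origin, and deviations of same-numbered libraries correlated at -0.03 over genes.

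Values near 0 that crossed it were, on TPM scales, Dennd4a (-0.10), Pde6d (-0.0061 and -0.0063), Gigyf2 (-0.047 and -0.048), Xrn2 (-0.036) and Exosc4 (-0.093 and -0.096), and with limma-voom Rab11a (0.0040). Without single replicates, ranges that spanned 0 were -0.21 to 0.16 (Commd6), -0.0760 to 0.0207 (Map2k1), -0.16 to 0.15 (Rab11a), -0.0180 to 0.0455 (Dennd4a), -0.18 to 0.0232 (Eif4e2), -0.0446 to 0.18 (Gigyf2), -0.0753 to 0.0027 (Ttc37), -0.18 to 0.0104 (Hbs1l), -0.0406 to 0.27 (Rmrp), -0.0239 to 0.18 (Xrn2), -0.20 to 1.46 (Mx1), -0.30 to 1.26 (Ifit1), -0.26 to 0.72 (Pf4) and -0.0917 to 0.12 (Exosc4).

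With 2 libraries a group, differences smaller than the printed intervals were not detectable, and reads shared by Dis3 and Pibf1 limit how closely the residual Dis3 level is known.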
